A study of Rattus norvegicus with 145 samples.

Results

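The cytochrome P450 genes of families 1 to 4 were followed through the livers of rats gavaged daily with acetamide, and were taken as every row of the count tables whose symbol begins with Cyp, a single digit from 1 to 4 and then a letter, the Cyp2c subfamily excepted. The rule found 47 of the 17337 genes listed, in 19 subfamilies, and left out 8 Cyp2c genes. Families 1, 2, 3 and 4 held 3, 24, 5 and 15 of them. The 145 rats formed 29 groups of 5, each given water vehicle or acetamide, with the dose in mg/kg/day (mkd). In experiment A, male Hsd:WI rats of 9 to 10 weeks received 0, 30, 100, 300 or 1000 mkd for 7 days and were sampled on day 8. In experiment B, male and female Crl:WI rats of 8 to 10 weeks received 0, 300, 500, 750, 1000 or 1500 mkd for 7 or 28 days and were sampled on day 8 or day 29. RNA of the left liver lobe was sequenced. The day 29 control males carry the experiment label of A but the titles, strain and age of B, and were placed with B.

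P450s are heme enzymes of the endoplasmic reticulum that use electrons from cytochrome P450 reductase to insert oxygen into their substrates, and those of families 1 to 3 carry out most oxidation of drugs and other foreign compounds in liver. Several are read as reporters of ligand-activated receptors: Cyp1a1 and Cyp1a2 for the aryl hydrocarbon receptor (AhR), Cyp2b1 and Cyp2b2 for the constitutive androstane receptor (CAR), Cyp3a genes for the pregnane X receptor (PXR) and Cyp4a genes, which hydroxylate fatty acids, for the peroxisome proliferator-activated receptor alpha (PPARalpha). In the rat, many P450s also differ between the sexes, because males and females secrete growth hormone in different patterns.

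Each library held 15449716 to 39986531 counts assigned to genes, with a median of 28262376. Levels are given as CPM, counts relative to library size, after scaling by the trimmed mean of M values (TMM), a factor that brings the bulk of genes in all libraries to a common level. A gene was called where its level differed from that of the vehicle group at least 1.5-fold at an adjusted p of 0.05 or lower, by edgeR's quasi-likelihood test with Benjamini-Hochberg adjustment over all genes tested in that data set. The 5 rats of a group were separate animals, and p-values measure the spread between them. The TMM factors ran from 0.856 to 0.976 in the controls of experiment A and from 1.06 to 1.91 at 1000 mkd, and results that turn on this factor are given on library totals as well. In bulk liver RNA, fewer cells of a type and less RNA per cell cannot be told apart.

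Of the 47 genes, 33 had enough counts to be tested in every data set, Cyp4a2 and Cyp4a8 only in males, and 12 in none. Those 12 were Cyp1b1, Cyp2a3, Cyp2b12, Cyp2b15, Cyp2b21, Cyp2g1, Cyp3a23/3a1, Cyp4f18, Cyp4f37, Cyp4f40, Cyp4f5 and Cyp4x1, and none exceeded 15 counts in any rat. Cyp3a23/3a1, the PXR-responsive gene of the rat, had 1 count in 1 of 145 rats, so that the tables give no reading of it. Reads of near-identical neighbours, such as Cyp2b1 and Cyp2b2, Cyp4a2 and Cyp4a3, or Cyp2d1, Cyp2d3 and Cyp2d5, may have been split between them in counting, and values of single genes within these groups are uncertain. CPM are not corrected for transcript length, so levels are compared between rats and not between genes. Together the 47 genes took 1.01 to 1.32% of the counts in the control rats of experiment A and 0.692 to 1.12% at 1000 mkd. In day 29 males of experiment B they took 1.04 to 1.16% in controls and 1.25 to 1.53% at 1500 mkd. In the other data sets the ranges of controls and 1500 mkd overlapped.

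Most of the genes sit in clusters of neighbours. In the RefSeq order of genes, 13 lie together on chromosome 1 (Cyp2s1, the Cyp2b, Cyp2g and Cyp2a genes, Cyp2f4 and Cyp2t1), 7 Cyp4f genes and 5 Cyp2d genes on chromosome 7, 6 genes of Cyp4a, Cyp4b and Cyp4x on chromosome 5 and the Cyp3a genes in groups of 3 and 2 on chromosome 12. RefSeq's promoter table for the GRCr8 assembly, which is not the Rn6 build of the counts, had an entry for 40 of the 47. Each window holds 300 bases around the annotated start, most of them upstream, and those of the genes on which the dose comparisons turn are shown here. Cyp2d1 and Cyp2d3 are neighbouring genes of the Cyp2d drug oxidases. Their windows, at chr7:115793381-115793680 and chr7:115802093-115802392 on the minus strand, were identical at 88.5% of the aligned positions, the most alike of the Cyp2d pairs, of which the others ran from 47.3 to 74.0%. Capitals mark TATAAA on either strand, so that TTTATA is the same motif read on the other strand.
Cyp2d1: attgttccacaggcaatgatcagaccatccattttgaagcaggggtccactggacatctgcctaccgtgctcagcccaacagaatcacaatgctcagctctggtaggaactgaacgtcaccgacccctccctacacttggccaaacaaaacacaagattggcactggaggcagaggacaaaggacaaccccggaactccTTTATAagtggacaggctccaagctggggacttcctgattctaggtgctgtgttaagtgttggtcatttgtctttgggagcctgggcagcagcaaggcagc
Cyp2d3: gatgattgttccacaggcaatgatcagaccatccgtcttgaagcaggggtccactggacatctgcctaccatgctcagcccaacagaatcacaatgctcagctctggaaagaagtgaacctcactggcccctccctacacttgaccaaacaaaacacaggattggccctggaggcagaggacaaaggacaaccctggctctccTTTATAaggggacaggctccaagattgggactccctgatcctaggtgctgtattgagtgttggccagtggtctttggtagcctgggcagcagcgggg
Cyp3a2, which encodes a male-specific steroid hydroxylase, lies at chr12:14343808-14344107 on the minus strand and is shown because it moved with Cyp2d1 and Cyp2d3 in experiment A. TATAAA was not found in these letters.
Cyp3a2: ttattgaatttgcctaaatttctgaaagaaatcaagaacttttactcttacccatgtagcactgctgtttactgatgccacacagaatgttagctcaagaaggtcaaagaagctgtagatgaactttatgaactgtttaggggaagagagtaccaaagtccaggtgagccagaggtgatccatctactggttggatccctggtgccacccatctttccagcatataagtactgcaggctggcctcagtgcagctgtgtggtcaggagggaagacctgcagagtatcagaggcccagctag
Cyp2e1, the ethanol-inducible P450 that oxidises small polar solvents, at chr1:205269717-205270016 on the plus strand, and Cyp3a62, another Cyp3a gene, at chr12:21511513-21511812 on the plus strand, are shown as the genes that rose on day 29, Cyp2e1 in males and Cyp3a62 in females.
Cyp2e1: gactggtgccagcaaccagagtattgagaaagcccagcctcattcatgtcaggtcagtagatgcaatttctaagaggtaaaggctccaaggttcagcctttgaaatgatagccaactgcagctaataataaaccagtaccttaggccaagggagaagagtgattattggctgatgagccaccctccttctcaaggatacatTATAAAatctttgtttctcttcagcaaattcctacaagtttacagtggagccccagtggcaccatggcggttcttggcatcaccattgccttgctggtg
Cyp3a62: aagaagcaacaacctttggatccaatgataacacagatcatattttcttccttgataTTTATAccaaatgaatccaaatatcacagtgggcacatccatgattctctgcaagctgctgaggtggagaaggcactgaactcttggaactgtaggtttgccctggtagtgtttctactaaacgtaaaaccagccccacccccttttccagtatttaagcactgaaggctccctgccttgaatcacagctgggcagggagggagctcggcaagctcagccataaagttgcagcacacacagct

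Searched on both strands, TATAAA was present in 9 of the 40 windows (22.5%), against 14.2% of all 33469 promoters in the table. GCGTG, the core bound by AhR, was present in 11 (27.5%) against 29.7%, and among them were the windows of Cyp2b1 and Cyp2b2, which were identical at 86.8% of aligned positions. TTCNNNGAA, the palindrome bound by STAT5, was present in 5 (12.5%) against 8.87%. These are matches of letters in short windows and nothing was drawn from them about binding.

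The first comparison asked how the P450s responded across doses in young males after 7 days. At 30, 100 and 300 mkd in experiment A, 0 of 35 tested P450s were called, as were 0% of all 11323 genes. At 1000 mkd, 16 of 35 were called, 1 higher and 15 lower, while 21.4% of all genes were called, 14% higher and 7.45% lower. The genes called lower were Cyp1a2, Cyp2a2, Cyp2b3, Cyp2d1, Cyp2d2, Cyp2d3, Cyp2d5, Cyp2f4, Cyp2j4, Cyp2r1, Cyp2t1, Cyp3a2, Cyp4a8, Cyp4f4 and Cyp4v3, and Cyp4f17 was the gene called higher. The median log2 fold change of the 35 was -0.71, against 0.000929 for all genes, with 28 values below 0 and 7 above. An unadjusted p of 0.05 or lower was reached by 24 of the 35 and by 41.9% of all genes. Without rat 2 of the 1000 mkd group, whose TMM factor was 1.91, 9 were called, all lower.

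**Figure D1:**
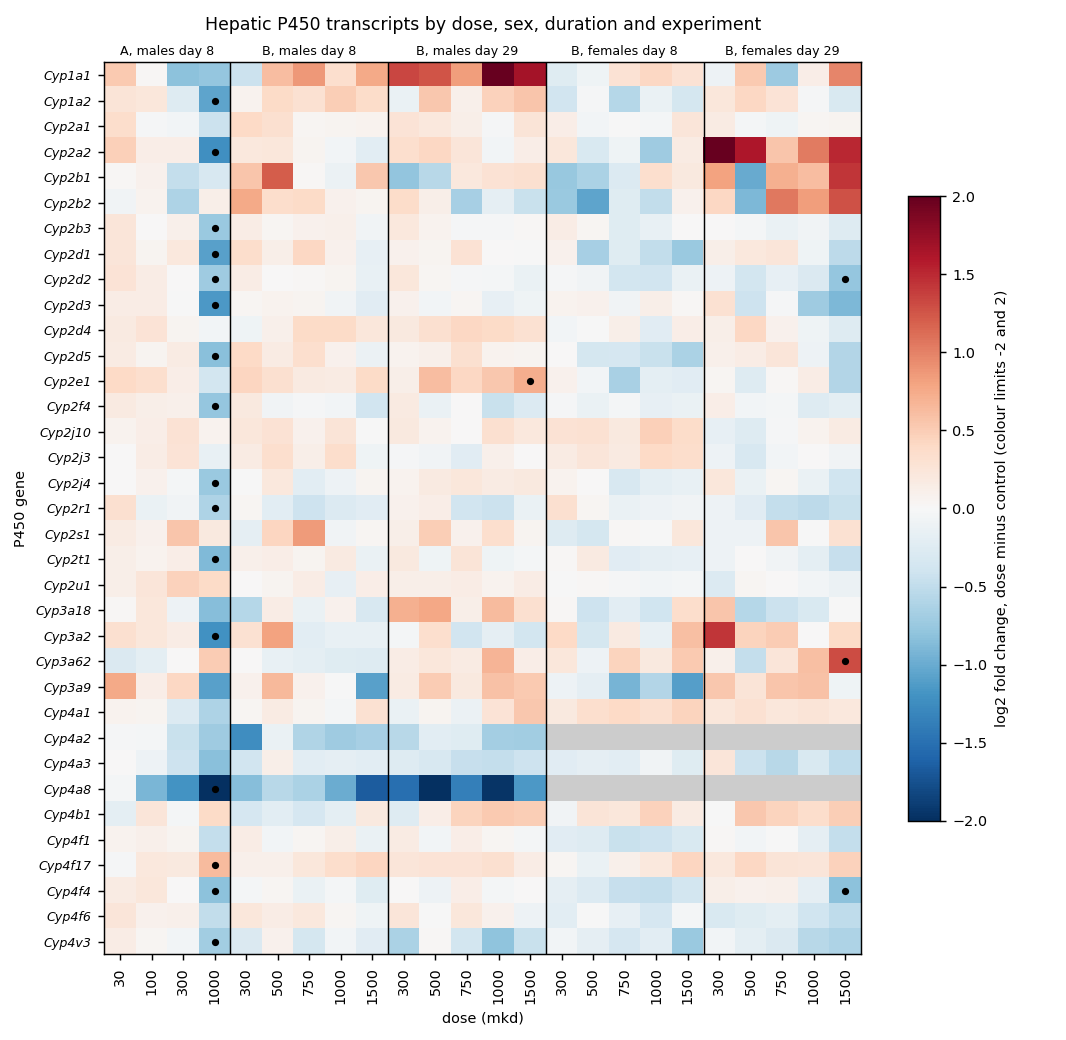
Log2 fold change of each of the 35 tested P450 genes (rows) at each dose in mkd (columns) against the vehicle group of the same data set, with colour limits at -2 and 2. Black dots mark calls: 16 at 1000 mkd in experiment A, 1 at 1500 mkd in day 29 males, 3 at 1500 mkd in day 29 females and 0 elsewhere; grey cells were not tested.

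Family 1 holds the AhR reporters. Cyp1a2, the liver's constitutive caffeine and arylamine oxidase, was at 624, 820, 1764, 1221 and 977 CPM in the control rats of experiment A and at 570, 375, 697, 337 and 617 at 1000 mkd. Of the 5 treated rats 4 lay below every control, and the change was -1.06 (log2, SE 0.31, adjusted p = 0.0135), a call lost without control rat 3 (adjusted p = 0.0539). Cyp1a1, which AhR ligands induce from a low base, was at 1.20 to 10.1 CPM in controls and 0.967 to 9.00 at 1000 mkd. Its log2 fold change of -0.77 had a 95% interval of -2.44 to 0.91 (adjusted p = 0.499), and the groups overlapped throughout.

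The Cyp2a and Cyp2d genes encode steroid and drug hydroxylases, and 1 of 2 tested Cyp2a genes and 4 of 5 Cyp2d genes were called. Cyp2a1 was at 143 ± 23.1 CPM in controls and 106 ± 26.8 at 1000 mkd (-0.44, adjusted p = 0.117). Cyp2a2, a male-specific testosterone hydroxylase, was at 464, 717, 579, 637 and 919 CPM in controls and at 443, 93.5, 425, 224 and 237 at 1000 mkd, a change of -1.22 (SE 0.32, adjusted p = 0.00622). Cyp2d3 was at 524, 480, 545, 529 and 397 CPM in controls and at 300, 82.5, 382, 172 and 183 at 1000 mkd (-1.15, SE 0.26, adjusted p = 0.00242). For both genes all 5 treated rats lay below all 5 controls, with rat 2 the lowest. Cyp2d1 was at 219, 168, 278, 195 and 145 CPM in controls and at 121, 44.8, 158, 82.7 and 66.5 after treatment, and only the treated rat 3 fell within the control range (-1.09, SE 0.28, adjusted p = 0.00581). Cyp2d2 and Cyp2d5 fell by 0.72 and 0.83 on the log2 scale, whereas Cyp2d4, the subfamily's brain-type member, was at 36.8 ± 11.3 CPM (SD, n = 5) in controls and 35.6 ± 13.5 at 1000 mkd (adjusted p = 0.922). The summed level of the Cyp2d subfamily was 2252 ± 308 CPM in controls and 1268 ± 546 at 1000 mkd.

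Elsewhere in family 2, 1 of the 3 Cyp2j genes was called. Cyp2j4, which oxidises arachidonic acid, fell from 86.5 ± 9.40 to 51.9 ± 15.3 CPM (adjusted p = 0.00449), while Cyp2j10 (0.07) and Cyp2j3 (-0.15) did not pass. Among the genes alone in their subfamily, Cyp2f4, a naphthalene-oxidising P450, fell from 70.5 ± 14.5 to 41.2 ± 12.0 CPM (adjusted p = 0.00342). Cyp2t1 was at 40.4, 29.7, 32.3, 41.4 and 31.9 CPM in controls and at 24.9, 10.4, 32.5, 15.6 and 11.8 at 1000 mkd. Only treated rat 3 fell within the control range. The Cyp2t1 call held in all 10 fits without 1 rat and was lost on library totals. Cyp2r1, a vitamin D 25-hydroxylase, fell from 5.88 ± 1.03 to 3.85 ± 0.518 CPM (adjusted p = 0.0417), and this call was lost without control rat 2, 3 or 5 or treated rat 1, 2, 4 or 5, with adjusted p between 0.0502 and 0.106. Without treated rat 2 the falls of Cyp2j4 (-0.57) and Cyp2d2 (-0.54) came under the 1.5-fold limit. Cyp2s1 (0.20) and Cyp2u1 (0.38) did not pass. Cyp2e1 was at 1859 to 3187 CPM in controls and 946 to 3511 at 1000 mkd, with 2 treated rats below and 1 above the control range (-0.37, 95% interval -0.98 to 0.23, adjusted p = 0.351). The CAR reporters did not pass the test. Cyp2b1 had a log2 fold change of -0.32 (95% interval -1.23 to 0.59) and Cyp2b2 one of 0.12 (-0.84 to 1.09), while Cyp2b3, a Cyp2b gene that CAR activators do not induce, fell by 0.74 (adjusted p = 0.0229), a call lost without treated rat 2, 4 or 5 (adjusted p 0.0566 to 0.073).

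In family 3, Cyp3a2 was at 1012, 1731, 1477, 1061 and 1050 CPM in controls and at 670, 234, 985, 422 and 413 at 1000 mkd, so that the groups did not overlap (-1.22, SE 0.35, adjusted p = 0.0108). Cyp3a18, the other male-predominant testosterone hydroxylase of the family, was at 704 ± 297 and 391 ± 202 CPM (-0.85, 95% interval -1.64 to -0.06, adjusted p = 0.0946), and Cyp3a9, an estrogen-metabolising member that is higher in females, at 80.3 ± 38.4 and 37.8 ± 22.4 CPM (adjusted p = 0.0662). Cyp3a62 lay on the other side of 0 at 0.51 (adjusted p = 0.0969). Of the 4 tested Cyp3a genes 1 was called.

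Family 4 acts on fatty acids and eicosanoids. Cyp4f17 was at 3.40, 2.61, 3.33, 2.98 and 2.40 CPM in controls and at 4.90, 5.64, 4.35, 4.19 and 3.81 at 1000 mkd, with every treated rat above every control (0.64, SE 0.22, adjusted p = 0.0334). The call was lost without control rat 2, 4 or 5 or without treated rat 1 or 2, with adjusted p between 0.0518 and 0.104. Cyp4f4 fell from 283 ± 61.9 to 161 ± 68.5 CPM (adjusted p = 0.0151) and Cyp4v3, a fatty acid hydroxylase, from 344 ± 29.4 to 212 ± 55.7 CPM (adjusted p = 0.0264). The Cyp4v3 call was lost without control rat 3 or treated rat 2, 4 or 5, with adjusted p between 0.0517 and 0.0771. Cyp4a8 was at 2.81, 24.1, 37.3, 4.43 and 1.31 CPM in controls and at 1.42, 1.46, 2.19, 2.62 and 4.42 at 1000 mkd (-2.53, SE 0.89, adjusted p = 0.0341). Its treated values all lay within the control range, and the call was lost without control rat 2 or 3 or treated rat 1, 2, 3 or 4, with adjusted p between 0.0515 and 0.136. None of the classical PPARalpha reporters passed: Cyp4a1 had a log2 fold change of -0.62 (95% interval -1.29 to 0.05), Cyp4a2 one of -0.71 (-1.99 to 0.58) and Cyp4a3 one of -0.83 (-1.60 to -0.06).

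Of the 35 genes, 7 did not overlap between control and 1000 mkd (Cyp2a2, Cyp2d3, Cyp2j4, Cyp2r1, Cyp3a2, Cyp4f17 and Cyp4v3), as did 16.2% of all genes. On library totals, without the TMM factor, the median of all genes itself stood at 0.58 at 1000 mkd. Of all 11323 genes, 5140 were called higher there and 150 lower. Of the P450s 9 were called, 4 lower (Cyp2a2, Cyp2d1, Cyp2d3, Cyp3a2) and 5 higher (Cyp2j10, Cyp2u1, Cyp3a62, Cyp4b1, Cyp4f17). The median of the P450s was then -0.19, which is 0.77 below that of all genes. A change of scaling shifts all genes of a library alike, so this distance could hardly change and is no separate support. The direction of single genes depended on the scaling. Cyp2a2, Cyp2d1, Cyp2d3 and Cyp3a2 were called lower in all 7 alternative fits and in all 10 fits that left out 1 rat.

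**Figure D2:**
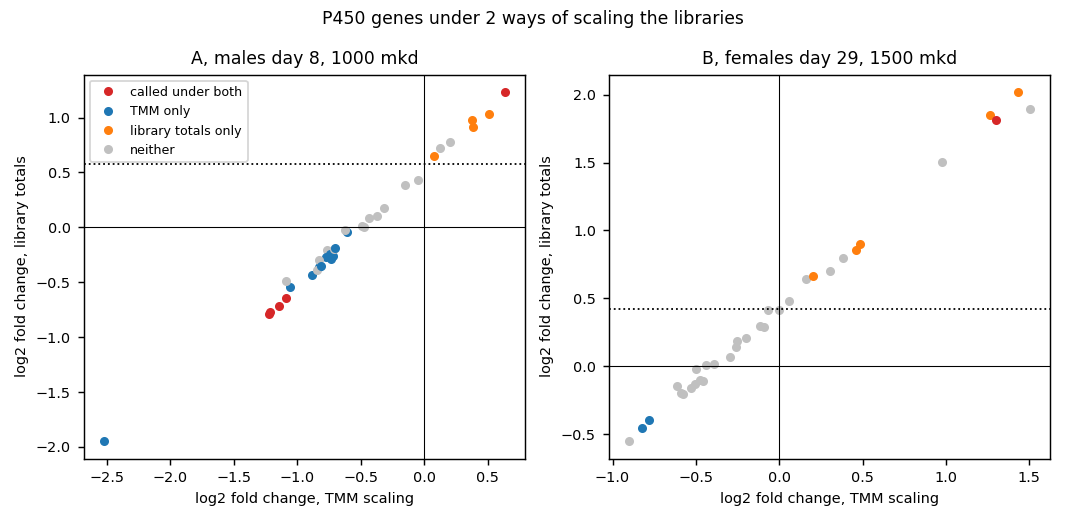
Log2 fold change of each tested P450 under TMM scaling (horizontal axis) and on library totals (vertical axis) at 1000 mkd in experiment A and at 1500 mkd in day 29 females of experiment B, with the dotted line at the median of all genes on library totals (0.58 and 0.42). In the first panel 5 genes are called both ways (Cyp4f17 higher, 4 lower), and in the second Cyp3a62 is the gene called both ways.

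Markers of cell types moved in the same libraries. The summed level of 10 hepatocyte markers, none of them at 0 in any rat, was 282245 to 375332 CPM in the controls of experiment A and 93074 to 279072 at 1000 mkd, and 4 of the 10 were called lower (Alb, Apob, Fgb, Ttr). The 10 macrophage markers summed to 534 to 1626 CPM in controls and 1325 to 2371 at 1000 mkd, with 6 called higher, and 10 T, NK and B cell markers to 7.23 to 9.75 and 10.9 to 29.4 CPM, with 7 called higher. Of 14 cell cycle genes, 13 were called higher. Of all genes 14% were called higher and 7.45% lower. On library totals, 1 hepatocyte marker was called, higher (Apoa1), and 10 macrophage markers were called higher. There, 5140 of 11323 genes were called higher and 150 lower. The part of these marker and cell cycle genes in the P450 changes was not tested.

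A slope on dose over all 5 groups of experiment A passed for 26 of 35 P450s, 3 rising (Cyp3a62, Cyp4b1, Cyp4f17) and 23 falling, beside 45.9% of all genes. The slope rested on the highest dose. With 1000 mkd left out 0 passed, and on the rank of the dose 7 did (Cyp1a2, Cyp2d2, Cyp2d3, Cyp2j4, Cyp2r1, Cyp4a8, Cyp4f17). On library totals 17 passed, 6 rising and 11 falling. The share of all genes in these other slope fits is not given here, so their counts are not set against it. Cyp2d3 shows the form of the response: its mean was 495 CPM in controls, 548 at 30 mkd, 550 at 100 mkd and 490 at 300 mkd before 224 at 1000 mkd. Cyp2a2 likewise had means of 663, 921, 731 and 725 CPM from 0 to 300 mkd and 285 at 1000 mkd.

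Experiment B repeated the 7-day treatment in Crl:WI rats and carried the dose to 1500 mkd. In males on day 8, 0 of 35 P450s were called at any dose by edgeR, while 0.177% of all genes were called at 1500 mkd and 0% at the lower doses. At 1500 mkd 2 of the P450s had an unadjusted p of 0.05 or lower, as did 12.6% of all genes, and levels of 2.55% of all genes did not overlap between the groups. DESeq2 called 1 P450, Cyp4a8, which edgeR placed at -1.66 (SE 0.49, adjusted p = 0.115), with 7.40 ± 5.12 CPM in controls and 2.33 ± 0.706 at 1500 mkd. The median log2 fold change of the 35 was -0.12. The interval of Cyp4a8 was -2.68 to -0.65, while those of Cyp1a1, Cyp1a2, Cyp2b1, Cyp2b2, Cyp3a18, Cyp4a1, Cyp4a2 and Cyp4a3 included 0, as in Cyp1a2 0.36 (-0.13 to 0.86), Cyp2b1 0.54 (-0.63 to 1.72), Cyp3a18 -0.32 (-1.06 to 0.43) and Cyp4a1 0.31 (-0.12 to 0.73). Slopes on dose passed for 0 P450s and for 2.52% of all genes, and DESeq2 found 1 (Cyp4a8).

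After 28 days at 1500 mkd, Cyp2e1 was the only P450 called in males, beside 4.91% of all genes (3.16% higher, 1.76% lower). An unadjusted p of 0.05 or lower was reached by 2 P450s and by 27% of all genes. Cyp2e1 was at 2624, 2116, 2088, 2169 and 2144 CPM in controls and at 4385, 4439, 3119, 3335 and 3238 at 1500 mkd, so that all 5 treated rats lay above all 5 controls, as 6.82% of all genes did not overlap either way (0.73, SE 0.21, adjusted p = 0.0326). Over the doses between, its mean was 2429 CPM at 300 mkd, 3407 at 500, 2963 at 750 and 3223 at 1000 mkd, with 2, 4, 2 and 4 of 5 rats above the highest control. At these lower doses 0 P450s were called by edgeR and 1 by DESeq2 (Cyp4v3), beside 0, 0, 0.78 and 2.76% of all genes by edgeR. The call did not hold without any 1 of the 5 control rats or without treated rat 1 or 2, where the adjusted p ran from 0.052 to 0.09 and the log2 fold change from 0.64 to 0.74, nor without the filter on low counts (adjusted p = 0.0526). It held under DESeq2 (adjusted p = 0.0147) and on library totals (adjusted p = 0.0104). The slope on dose passed for Cyp2e1 (0.46 log2 per 1000 mkd, SE 0.13), Cyp4a1 (0.40, SE 0.13) and Cyp4b1 (0.48, SE 0.15), all rising, beside 24.5% of all genes, and for 0 P450s without replicate 1 or without replicate 2 of every group. Without the 1500 mkd group 2 passed, Cyp4a8 and Cyp4b1.

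Cyp4a1, the fatty acid omega-hydroxylase read as a PPARalpha reporter, was at 623, 671, 855, 719 and 595 CPM in these controls and at 577, 832, 1301, 1521 and 794 at 1500 mkd, with 2 treated rats above and 1 below the control range (0.54, 95% interval 0.09 to 0.99, adjusted p = 0.12). It was called on library totals (0.73, adjusted p = 0.0423). Cyp1a1 had a log2 fold change of 1.66 with a wide 95% interval (-0.26 to 3.57), from levels of 0.0336 to 0.522 CPM in controls and 0.293 to 2.21 at 1500 mkd. Male rat 3 at 1500 mkd stood apart from the other 4, with a TMM factor of 1.49, a summed cell cycle level of 1151 CPM against 46.6 to 102, and Cyp3a18 at 135 CPM. Without it the Cyp2e1 call remained (adjusted p = 0.0304).

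**Figure D3:**
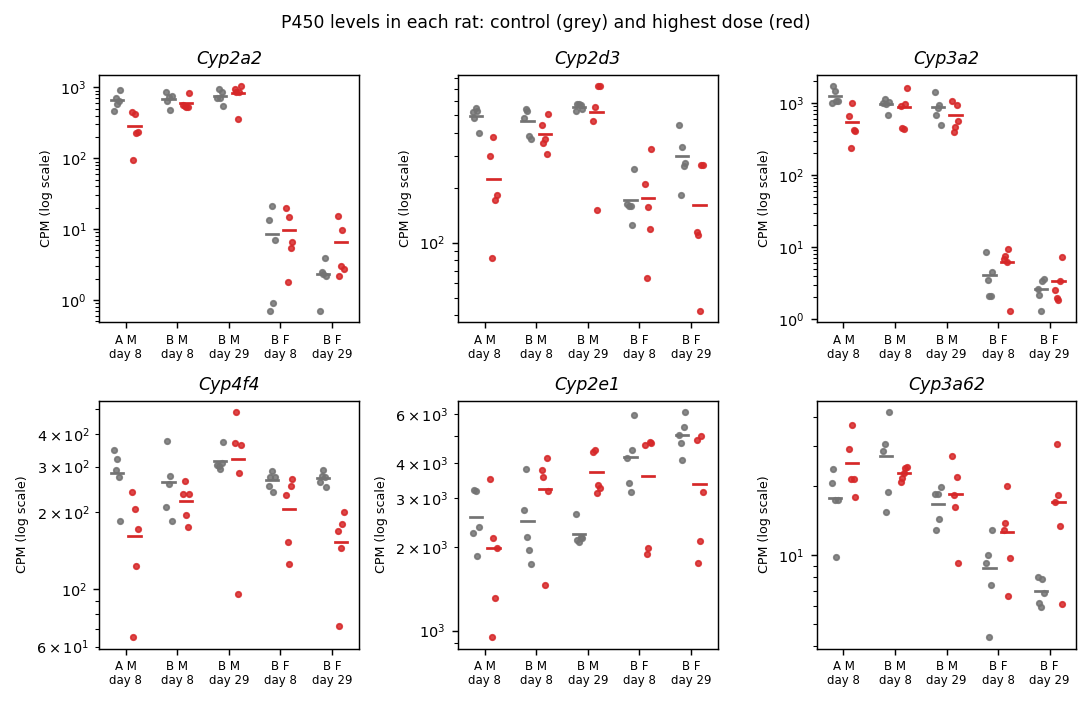
TMM-scaled CPM on a log axis in each of the 5 control rats (grey) and 5 rats of the highest dose (red) per data set, with bars at the means, for 6 P450 genes. In experiment A all treated rats lie below the controls for Cyp2a2, Cyp2d3 and Cyp3a2, in day 29 males all treated rats lie above the controls for Cyp2e1, and the female levels of Cyp2a2 and Cyp3a2 lie far below the male ones.

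Females on day 8 had 0 of 33 P450s called at any dose by edgeR, with 0.0087, 0.0174, 0.0174, 1.37 and 0.705% of all genes called from 300 to 1500 mkd. An unadjusted p of 0.05 or lower was reached by 3 at 1500 mkd and by 14.7% of all genes. The gene nearest to a call was Cyp4v3, at 505 ± 44.7 CPM in controls and 302 ± 54.9 at 1500 mkd, where all 5 treated rats lay below all controls, beside 2.71% of all genes without overlap (-0.74, SE 0.22, adjusted p = 0.0878). DESeq2 called it, and without treated rat 1 the test called Cyp4v3 and Cyp2d5. Both had a falling slope on dose, beside 5.44% of all genes, which was not called on library totals, or without the highest dose, or without replicate 2, 3, 4 or 5.

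In females after 28 days at 1500 mkd, 3 of 33 P450s were called, Cyp3a62 higher and Cyp2d2 and Cyp4f4 lower, beside 13.1% of all genes (9.55% higher, 3.54% lower). At 300 to 1000 mkd 0 were called by edgeR, beside 0, 0.0349, 0.183 and 1.59% of all genes. An unadjusted p of 0.05 or lower at 1500 mkd was reached by 12 of the 33 and by 32.7% of all genes. Cyp3a62 was at 8.05, 6.16, 5.91, 7.83 and 6.80 CPM in controls and at 17.0, 30.7, 18.3, 13.3 and 6.13 at 1500 mkd (1.30, SE 0.30, adjusted p = 0.00391). Rats 1 to 4 lay above every control and rat 5 among them. All 5 rats at 1000 mkd were also above the controls, with a mean of 10.5 ± 1.77 CPM, though the difference there did not pass (0.60, adjusted p = 0.274). The call at 1500 mkd held in all 7 alternative fits and all 10 fits without 1 rat, with the smallest log2 fold change, 0.99, without treated rat 2.

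Cyp4f4, a leukotriene B4-metabolising omega-hydroxylase, was at 262, 276, 291, 273 and 250 CPM in the day 29 control females and at 169, 72.4, 145, 179 and 199 at 1500 mkd, with no overlap, as for 6.13% of all genes (-0.82, SE 0.22, adjusted p = 0.0107). Its means at 300 to 1000 mkd lay between 239 and 293 CPM. Cyp2d2, a drug oxidase of the debrisoquine type, was at 1364, 1707, 1620, 1831 and 1829 CPM in controls and at 1434, 456, 784, 1236 and 959 at 1500 mkd, with 4 of 5 treated rats below the controls (-0.78, SE 0.21, adjusted p = 0.0106). Neither fall was called when the fit held only these 2 groups. On library totals the median of all genes stood at 0.42, and 3353 of 11451 genes were called higher and 74 lower. Cyp2d2 and Cyp4f4 were not called there and 6 P450s were called higher: Cyp2b1, Cyp2b2, Cyp3a62, Cyp4a1, Cyp4b1 and Cyp4f17. Cyp3a62 was thus the gene called under both scalings. Leaving out 1 rat gave 3 to 7 calls, with 7 without treated rat 1, 6 without control rat 3 and 5 without treated rat 4 or 5.

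The CAR reporters varied widely among the treated females. Cyp2b1 was at 0.0838 to 0.979 CPM in controls and at 0.809, 2.47, 2.29, 0.606 and 0.298 at 1500 mkd, with rats 2 and 3 above the controls (1.43, 95% interval 0.22 to 2.64, adjusted p = 0.0869). In the same 2 rats Cyp2b2 was at 30.3 and 22.2 CPM, against 2.92 to 8.24 in controls and 2.73 to 7.37 in the other treated rats (1.27, 95% interval 0.02 to 2.52, adjusted p = 0.147). Cyp2e1, the gene called higher in males, had a log2 fold change of -0.59 in females (95% interval -1.06 to -0.12, adjusted p = 0.0687), from 5058 ± 745 to 3361 ± 1501 CPM, and was called lower by DESeq2. Cyp1a2 was at 1288 ± 191 and 1048 ± 381 CPM (adjusted p = 0.389).

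The slope on dose in day 29 females passed for 6 P450s beside 27.3% of all genes, rising for Cyp3a62 (0.93 log2 per 1000 mkd, SE 0.18, adjusted p = 0.000376) and falling for Cyp2d2, Cyp2d3, Cyp4f1, Cyp4f4 and Cyp4v3. On library totals 8 passed, all rising, among them Cyp3a62, Cyp2b1 and Cyp2b2. DESeq2 gave 10, of which 1 rising and 9 falling, and without 1500 mkd 0 passed. The share of all genes in these other slope fits is not given here, so nothing particular to P450s is drawn from their counts. On library totals the calls of all genes at 1500 mkd were mostly higher too (3353 higher, 74 lower). In these females the 10 hepatocyte markers summed to 217779 to 412985 CPM in controls and 111617 to 219872 at 1500 mkd, with 2 called lower (Alb, Cps1) and 1 higher (Apoa1). The 10 macrophage markers summed to 1007 to 1245 and 1151 to 2269 CPM with 4 called higher, and 14 of 14 cell cycle genes were called higher. Of all genes 9.55% were called higher and 3.54% lower. On library totals 1 hepatocyte marker was called higher (Apoa1) and 0 lower, and 10 macrophage markers were called higher. There, 3353 of 11451 genes were called higher and 74 lower. The part of these marker and cell cycle genes in the P450 changes was not tested.

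The sexes were compared in the vehicle controls of experiment B. On day 8, 12 of 35 P450s differed, beside 7.24% of all genes, and on day 29 12, beside 10.8%. An unadjusted p of 0.05 or lower was reached by 17 and 20 of the 35, beside 21.3% and 29.7% of all genes. Cyp3a2 was at 1414, 689, 865, 938 and 501 CPM in the day 29 control males and at 2.64, 2.16, 1.30, 3.34 and 3.56 in the females, a female minus male log2 difference of -8.51 (SE 0.58, adjusted p = 7.39e-14). Cyp2a2 was at 714, 947, 716, 857 and 539 CPM in those males and at 0.70, 2.52, 2.35, 3.87 and 2.20 in the females (-8.46, SE 0.80, adjusted p = 4.6e-10). Cyp4a2 was at 83.7, 38.3, 43.7, 16.9 and 11.2 CPM in the males, while 4 of the 5 females had no count and the fifth 1 count, so no fold is given. The remaining genes higher in males on both days were Cyp2b1, Cyp3a18, Cyp3a62 and Cyp4a8, with Cyp2d3 and Cyp2j10 called on day 8 and Cyp4a3 on day 29. The Cyp2j10 call was kept only without male rat 4 or female rat 4 among the 10 fits that left out 1 rat, and was lost without the filter on low counts (adjusted p = 0.0532) and on library totals (adjusted p = 0.0549). The day 8 call of Cyp1a2 was lost without male rat 4 (adjusted p = 0.0579).

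Higher in females on both days were Cyp3a9, Cyp2a1 and Cyp1a2. Cyp3a9 was at 30.7, 86.4, 47.6, 54.3 and 70.9 CPM in the day 29 control males and at 495, 231, 234, 437 and 538 in the females (2.63, SE 0.69, adjusted p = 0.00791). Cyp2a1, a testosterone hydroxylase, was at 168, 212, 141, 158 and 149 CPM in males and at 575, 432, 439, 426 and 716 in females (1.53, SE 0.17, adjusted p = 1.17e-08), and Cyp1a2 differed by 1.30 (SE 0.36, adjusted p = 0.0114). On day 29 Cyp2e1 was higher in females too (1.07, SE 0.29, adjusted p = 0.00858). At 1500 mkd on day 29, Cyp3a2 was at 1.85 to 7.36 CPM in females and at 396 to 1057 CPM in males.

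**Figure D4:**
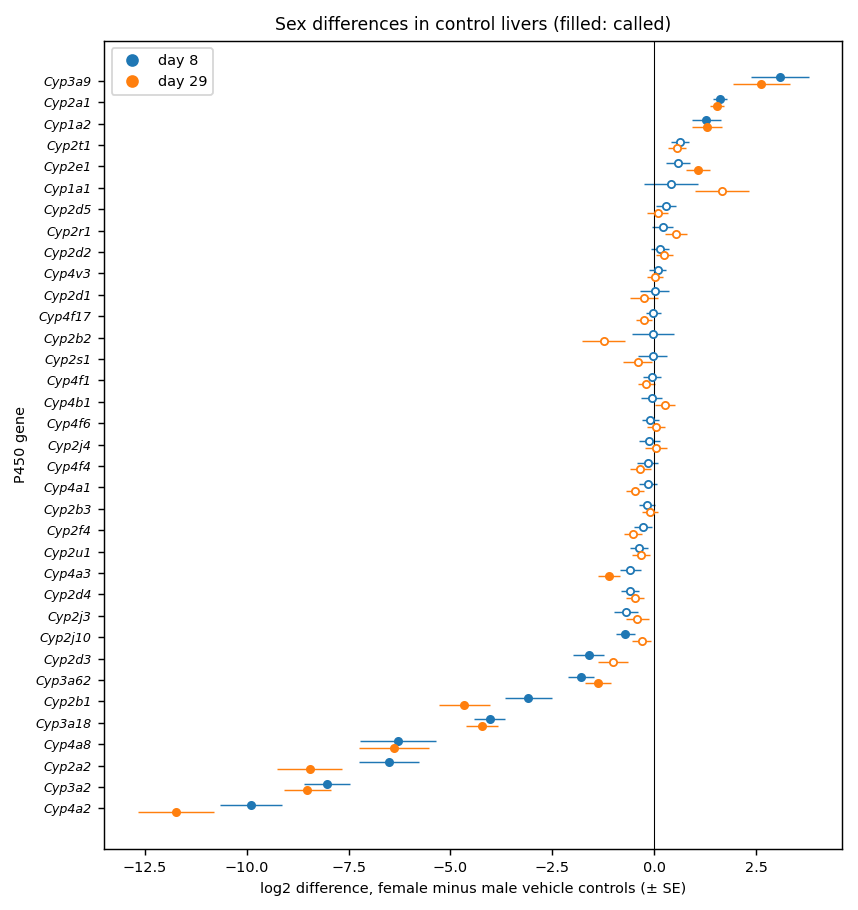
Female minus male log2 difference with its SE for the 35 tested P450s in the vehicle controls of experiment B on day 8 (blue) and day 29 (orange), filled where called. On each day 12 genes are filled, from Cyp4a2, Cyp3a2 and Cyp2a2 (higher in males) to Cyp3a9, Cyp2a1 and Cyp1a2 (higher in females).

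Whether the sexes responded differently to 1500 mkd was tested by the interaction of sex and treatment, which called 0 P450s and 0% of all genes on either day. On day 8, 1 P450 (Cyp4a8) had an unadjusted p of 0.05 or lower, as did 3.13% of all genes, and on day 29 5 did (Cyp2b2, Cyp2d2, Cyp2e1, Cyp3a62, Cyp4f4), as did 14.8%. The smallest p of these was that of Cyp2e1, with 0.73 in males and -0.59 in females and an interaction of -1.32 (SE 0.40, unadjusted p = 0.00221, adjusted p = 0.169). Without the day 29 male rat 3 of the 1500 mkd group, Cyp2e1 and Cyp4f4 were called. Responses on day 29 and day 8 were compared in the same way and 0 P450s were called in either sex, by edgeR and by DESeq2. Unadjusted p of 0.05 or lower was reached by 0 P450s in males (3.3% of all genes) and by 1 in females (Cyp2d2, 6.05% of all genes).

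Males of both experiments had been given 1000 mkd for 7 days, which allowed a comparison of the 2 settings. Cyp2a2, at 663 ± 170 and 285 ± 148 CPM in the control and treated rats of experiment A, was at 694 ± 140 and 670 ± 163 CPM in those of experiment B. Cyp2d3 was at 495 ± 59.6 and 224 ± 117 CPM in A and at 462 ± 78.6 and 441 ± 144 CPM in B, and Cyp1a2 at 1081 ± 440 and 519 ± 156 CPM in A and at 447 ± 166 and 628 ± 197 CPM in B. The interaction of experiment and treatment called 0 P450s and 0% of all genes, while 15 of 35 P450s had an unadjusted p of 0.05 or lower, as did 21.9% of all genes. The smallest adjusted p was that of Cyp1a2 (-1.54, SE 0.45, adjusted p = 0.0758), followed by Cyp2t1 (-1.05, SE 0.33, adjusted p = 0.0887). DESeq2 called these 2 genes lower in A, and library totals called Cyp2u1 and Cyp4b1 higher in A. Leaving out 1 rat gave 0 to 3 calls: 1 without rat 1 and 3 without rat 3 of the treated group of A, and 2 without rat 2 of the treated group of B. The experiments also differed in strain and supplier, which cannot be told apart from the other differences between them.

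**Figure D5:**
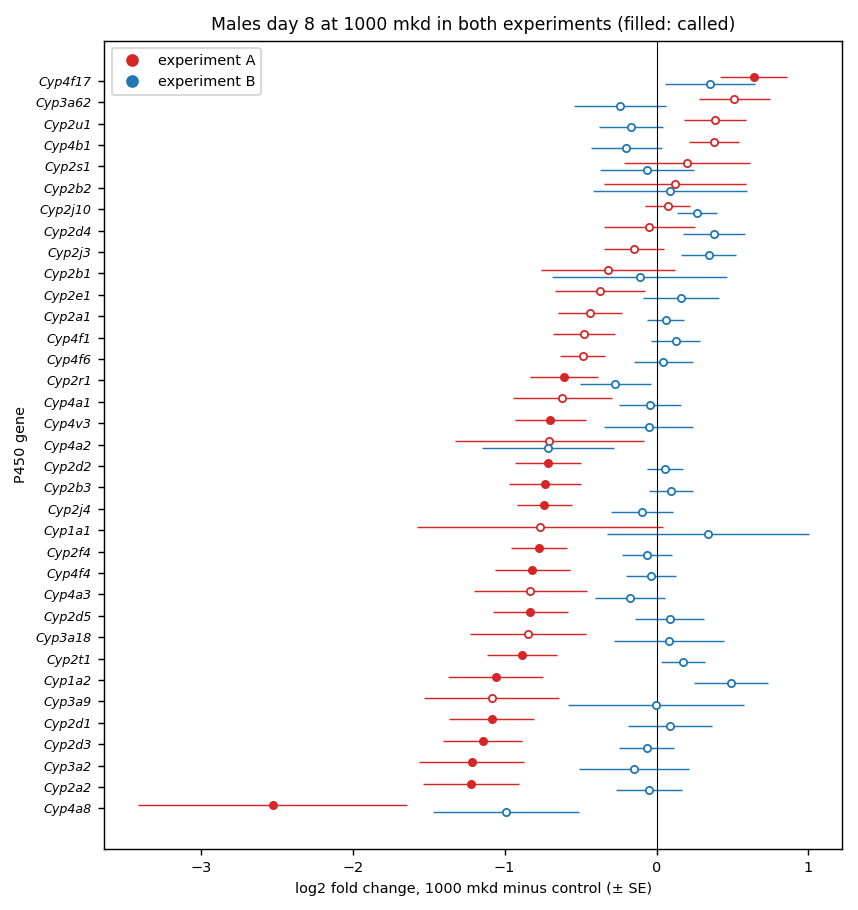
Log2 fold change with its SE at 1000 mkd against control in day 8 males of experiment A (red) and experiment B (blue) for the 35 tested P450s, filled where called. In A 16 are filled and in B 0, and the difference between the experiments passed the test for 0 genes.

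Genes that act with the P450s were read from lists chosen with earlier results known. Among 14 tested CAR and PXR targets beyond the P450s, 5 were called higher and 3 lower at 1000 mkd in experiment A, beside 14% and 7.45% of all genes, and 3 higher and 2 lower in females on day 29, beside 9.55% and 3.54%. On library totals the counts were 7 higher and 1 lower in experiment A, where 5140 of 11323 genes were called higher and 150 lower. In the females they were 6 higher and 0 lower, where 3353 of 11451 genes were called higher and 74 lower. Abcb1b, a drug efflux pump, rose from 6.17 ± 1.59 to 58.8 ± 18.2 CPM in experiment A and from 6.34 ± 3.20 to 47.5 ± 30.9 CPM in the day 29 females. It was also called higher at 1500 mkd on day 8 in males and in females, beside 0.177 and 0.705% of all genes. Abcc3, a bile acid and conjugate exporter, rose in experiment A (1.89, SE 0.38), in day 29 males (1.47, SE 0.37) and in day 29 females (1.55, SE 0.37). Akr7a3, an aldehyde reductase, rose in experiment A (1.00, SE 0.29) and in females on day 8 (2.18, SE 0.53) and day 29 (0.85, SE 0.25), and Ugt1a1, the bilirubin glucuronosyltransferase, fell in experiment A (-0.79, SE 0.17), day 29 males (-0.90, SE 0.27) and day 29 females (from 173 ± 51.6 to 86.2 ± 43.8 CPM), of which only the fall in day 29 males was called on library totals. Aldh1a7 was called higher in experiment A (2.69, SE 0.80) and lower in day 29 females (-2.88, SE 1.01), the latter under TMM only. Abcb1b and Abcc3 were also called higher on library totals in these comparisons, where Abcb1b in day 29 males was called under neither scaling. Of the AhR targets beyond P450s 2 of 5 could be tested, and Ugt1a6 rose in experiment A (0.77, SE 0.26) while Nqo1 fell in day 29 females (-1.38, SE 0.35).

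Of 20 PPARalpha targets beyond the P450s, 2 were called higher and 10 lower in experiment A, beside 14% and 7.45% of all genes, and 2 higher and 0 lower in the day 29 females, beside 9.55% and 3.54%. Acot1, an acyl-CoA thioesterase, was called higher at the highest dose in all 5 data sets, from 0.559 ± 0.753 to 5.57 ± 4.71 CPM in experiment A and from 2.61 ± 3.89 to 62.0 ± 77.3 CPM in day 29 females. Cpt1b, a carnitine palmitoyltransferase, rose in experiment A (0.92, SE 0.32) and day 29 females (0.83, SE 0.21). On library totals the list in experiment A held 3 higher and 1 lower, beside 5140 and 150 of 11323 genes. Its median log2 fold change was -0.63 under TMM, against 0.000929 for all genes, and -0.09 on library totals, against 0.58. The calls of the list thus depended on the scaling. Its median lay below that of all genes under both, but a shift common to all genes leaves that order nearly unchanged. Por, the reductase that supplies the P450s with electrons, was at 397 ± 118 and 288 ± 130 CPM in experiment A (adjusted p = 0.309), and Cyb5a, the cytochrome b5 that donates the next electron, fell by 0.61 (adjusted p = 0.0471) there but was not called on library totals. Hmox1, which breaks heme down, rose in experiment A (1.43, SE 0.24) and in day 29 females (0.66, SE 0.20), and was called higher under both scalings. Of the 9 genes of heme synthesis and breakdown, Hmox1 was the only gene called higher in experiment A. Called lower there were 3 under TMM (Alad, Ppox, Urod), beside 7.45% of all genes, and 0 on library totals. In day 29 females 0 of the 9 were called lower. Of 20 receptors and factors that regulate P450s, 0 were called higher at the highest doses under TMM. Called lower were 2 in experiment A, 3 in day 29 males and 1 in day 29 females. The shares of all genes called lower were 7.45, 1.76 and 3.54%. Ghr, the growth hormone receptor, fell in experiment A (-1.11, SE 0.21, called also on library totals). Under TMM only, it fell in day 29 males (-0.63, SE 0.17) and females (-1.01, SE 0.25). In day 29 males Esr1 and Rxra were also called lower, Rxra on library totals as well. Nr1i2, which encodes PXR, fell in experiment A (-0.67, SE 0.20) under TMM only, and Nr1i3, which encodes CAR, did not pass there (-0.37, adjusted p = 0.41). In females at 1500 mkd on day 8 and on day 29, Nr1i3 was called higher on library totals but not under TMM.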

How the data were processed

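Liver RNA of 145 rats was prepared as stranded mRNA libraries and read as single-end reads. The deposited tables hold raw counts of reads per gene symbol, which the authors made by trimming with Trimmomatic, aligning with Bowtie2 to the UCSC Rn6 rat genome and counting with HTSeq; versions are not given in the sources used here. The tables of experiment B also hold 5 HTSeq summary lines, 35.5 to 67.1% of a column (median 41.2%), which entered neither library sizes nor tests. No pair of columns held identical values.

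Counts were analysed with edgeR 4.0.16 in R 4.3.3 (limma 3.58.1): TMM scaling, edgeR's filter on low counts, and the quasi-likelihood F-test with all dose groups of a data set in 1 fit. Calls needed a 1.5-fold difference or more and an adjusted p (Benjamini-Hochberg, over all genes tested) not above 0.05. Slopes on dose and the differences in response between sexes, durations and experiments were called on the adjusted p alone. Printed CPM use the TMM-scaled library size. The scripts were tested on simulated data. The members and gene lists were chosen with earlier results of these data known. Named with values were the P450s called at the highest dose of any data set, the receptor targets and Cyp2e1. So were those with a difference in response or the 3 largest differences between the sexes each way. Also named were the list genes called at the highest dose of 2 or more data sets. Cyp2d4, Cyp3a9, Cyp3a62 in experiment A, Ugt1a6, Nqo1, Por, Cyb5a, Nr1i2 and Nr1i3 were named after their values were seen. So were Alad, Ppox, Urod, Esr1 and Rxra.

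Alternatives were DESeq2 1.42.0, its size factors, no or a stricter filter (10 counts in every rat), a replicate block, fits of only the groups compared, and leaving out each rat; scaling by library totals was added after seeing the data. Total counts per library (15449716 to 39986531) limit precision for the genes of low level.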

Additional observations from a re-analysis of the deposited data

Results flagged for a closer look

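In the vehicle group and the highest-dose group of each data set, the lowest and the highest level of the named P450s were compared with the other 4. This used Dixon's gap ratio against its 95% critical value of 0.71. The doses between were not screened. Of 151 combinations of gene and group tested 15 held such a rat, and chance gives about 1 in 20. Rat 2 of the 1000 mkd group of experiment A was the low rat for Cyp2j4 (26.1 CPM), Cyp3a18 (87.1 CPM) and Cyp4a2 (2.32 CPM), and it had the highest TMM factor of its group (1.91). In the controls of experiment A, rat 5 was low for Cyp2f4 (45.4 CPM) and Cyp3a18 (215 CPM), and rat 4 was high for Cyp4a2 (186 CPM).

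In males of experiment B on day 8, Cyp3a18 was low in control rat 4 (193 CPM), and at 1500 mkd Cyp2b1 was high in rat 5 (33.8 CPM) and Cyp2e1 low in rat 3 (1452 CPM). In day 29 males, Cyp2e1 was high in control rat 1 (2624 CPM), Cyp1a1 low in control rat 4 (0.0336 CPM), Cyp2b2 apart in control rat 5 (2.71 CPM) and Cyp3a18 low in rat 3 at 1500 mkd (135 CPM). In day 29 females, Cyp1a2 was low in rat 2 at 1500 mkd (381 CPM), and Cyp4a2 had its 1 count in control rat 4 (0.0408 CPM), where the other 4 controls had none.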

How the results depend on the processing

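Across 22 results and 147 alternatives other than leaving out a rat, 128 counts stayed within 1.5 times the main one and 19 did not. Of 700 values for single P450s, all of genes called in the main fit, 632 kept their call, 68 kept their direction without it and 0 reversed. P450s not called in the main fit do not enter these values, and some changed sign. At 1000 mkd in experiment A, 28 of 35 log2 fold changes were below 0 under TMM and 21 on library totals, with Cyp2a1 going from -0.44 to 0.09. The cause of the changes was not tested. On library totals, an alternative chosen after seeing the data, the calls were 9 at 1000 mkd in experiment A with 17 slopes, 2 in day 29 males, 6 in day 29 females, 0 slopes in day 8 females and 2 differences between experiments. DESeq2 called 1 P450 at 1500 mkd and 1 slope in day 8 males, 1 at the lower doses in day 29 males, 1 in day 8 females, 10 slopes in day 29 females and 2 differences between experiments. Without the highest dose 0 slopes passed in experiment A and in females on day 8 and on day 29, and on the rank of the dose 7 passed in experiment A. Without the filter on low counts 0 were called in day 29 males, and with only the groups compared 1 in day 29 females. Leaving out rats gave 9 to 18 calls and 19 to 25 slopes in experiment A, 0 to 1 calls and 0 to 4 slopes in day 29 males, 0 to 2 of each in day 8 females, 3 to 7 calls and 4 to 7 slopes in day 29 females, 11 to 13 sex differences on day 8 and 12 to 13 on day 29, 0 to 2 differences in response between the sexes on day 29, 0 to 3 between experiments, and 0 to 0 for the others. Same-numbered rats did not in general deviate together (median correlation -0.02 to 0.03, lowest -0.54, highest 0.48), and replicate numbers gave no sign of pairing. In experiment A rat numbers follow the order within a group and not always the number in the title. Pairing by title was thus not tested there. A replicate block gave 2 differences between experiments where the fit without it gave 0, and moved no other count by over 1.5 times. Depth limits the 12 P450s with at most 15 counts.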
